A study of Mus musculus with 6 samples.

Results

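Mitosis genes, the genes whose products carry a cell from entry into division to its separation into daughters, were read from arrays of 2T3 cells grown for 3 days in static culture or under simulated microgravity. They were taken as every probe set that the platform's gene table gives to 1 of 37 listed genes. The table names 18193 genes in probe sets of a single gene. Of the 37 listed, 36 had a probe set, and Ccnb1 was not analysed here. The members took 76 of the 45037 probe sets other than controls. The 2T3 line is a clone of mouse bone-forming precursors taken from the skull vault of animals that carried a viral T antigen under the Bmp2 promoter. All 6 samples were at passage 8 to 10, and all name the rotating wall vessel, which keeps cells suspended in medium by turning a filled chamber on its side. The 3 static samples are titled as static, and the 3 others carry only the letter R in the title, taken here as rotated. For static 2 and static 3 the source field names simulated microgravity, against their titles, and the titles were used. Each sample is 1 array. Since no label tells whether cultures were separate, every p-value here reflects the spread between these arrays alone, and that spread may be technical.

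Entry into mitosis is driven by Cdk1 bound to cyclins of the A and B types, which Cdc25 phosphatases activate. The Polo and Aurora kinases, the kinetochore and the kinesin motors then build the spindle, and the spindle checkpoint holds back the anaphase-promoting complex until every chromosome is attached. Transcripts of these genes are known to peak in the G2 and M phases, so that in a culture they follow the share of dividing cells. In RNA of a whole culture, fewer dividing cells and less RNA per cell cannot be told apart. T antigens are known to bind the retinoblastoma and p53 proteins, which restrain cell cycle genes, and both groups carry it.

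The G2 and M phase genes are known to share 2 promoter elements, the CHR, written TTTGAA or TTCGAA, and the CCAAT box. Both were searched on both strands in RefSeq promoters of build GRCm38.p6, 250 bases before to 50 bases after each start. The promoter table held 31 of the 37 genes, Ccnb1 among them, with 34 promoters. TTTGAA lay in 25 of these 34 promoters (73.5%), against 17.9% of all 32851 promoters, and TTCGAA in 4 (11.8%), against 1.56%. CCAAT lay in 26 (76.5%), against 37.4%, and 24 promoters (70.6%) held a CHR word together with CCAAT, against 7.52% of all. In 102 promoters of other mitosis genes, listed below, the shares were 40.2% for TTTGAA, 9.8% for TTCGAA, 60.8% for CCAAT and 32.4% for both kinds; the difference from the members was not tested. The last 100 bases before the start are shown for 4 genes that hold both words there and had differences of -0.01, 0.30, -0.37 and -0.01 between rotated and static (log2), and for Nuf2, in which neither word was found in the whole window. Motif letters, on either strand, are in capitals.
Cdk1: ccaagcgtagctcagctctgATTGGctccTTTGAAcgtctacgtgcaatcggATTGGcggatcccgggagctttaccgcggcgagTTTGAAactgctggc
Cdc20: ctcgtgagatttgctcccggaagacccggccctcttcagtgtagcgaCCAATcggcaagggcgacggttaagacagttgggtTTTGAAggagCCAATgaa
Kif11: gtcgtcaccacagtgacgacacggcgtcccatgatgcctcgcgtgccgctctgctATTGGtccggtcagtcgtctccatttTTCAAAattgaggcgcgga
Espl1: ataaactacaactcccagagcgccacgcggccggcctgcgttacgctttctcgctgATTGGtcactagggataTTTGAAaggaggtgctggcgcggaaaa
Nuf2: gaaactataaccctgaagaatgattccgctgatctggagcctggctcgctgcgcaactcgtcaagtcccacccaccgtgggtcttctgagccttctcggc
These windows are chr10:69352913-69353012 (minus strand), chr4:118437344-118437443 (minus strand), chr19:37376282-37376381 (plus strand), chr15:102296193-102296292 (plus strand) and chr1:169531465-169531564 (minus strand). A match describes the letters and is not evidence of a bound factor.

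The deposited signals are intensities on a linear scale, 1 per probe set and array. Levels below are log2 of the signal plus 16.6 after quantile normalization, and differences are rotated minus static, written ± limma's moderated standard error, with 3 arrays per group. The median signal per array was between 70.0 and 130.1, with static 1 the brightest. The actin control, whose 3' over 5' ratio grows as RNA is degraded or poorly copied, gave 3.21 on rotated 1 and at most 1.57 elsewhere. The transferrin receptor control gave 8.92 on rotated 1 and 1.62 to 3.71 elsewhere, while the Gapdh control gave 0.875 there, close to the 0.867 of static 1 and to the 0.748 to 0.792 of the other 4. A gene was tested where its probe set had a mean level of at least 5.96, which 70 of the 76 probe sets and all 36 genes with a probe set met; the 6 others were further probe sets of Cenpa, Top2a, Kif23, Aurka, Incenp and Bub3. Of the osteoblast lineage markers 9 of 10 were tested. The collagen gene Col1a2 was at 14.17 to 14.89 and the cadherin gene Cdh11 at 13.05 to 13.76, while the phosphatase gene Alpl, with group means of 6.56 and 6.29, lay near the filter. All 9 stood lower in rotated in value, with a median of -0.51, and limma called 0. An unadjusted p under 0.05 was reached by 5 of the 9, all lower, and by 6 with replicate numbers as a block, against 3.74% and 6.75% of all genes. Of markers of other cell types, 3 of 6 haematopoietic, 1 of 5 endothelial, 3 of 5 epithelial and 2 of 5 adipocyte genes were tested; the fatty acid binding protein gene Fabp4 was at 11.25 to 12.24.

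No mitosis gene differed between rotated and static cells by more than the spread between arrays allowed the test to call. The values of 21 of the 36 genes stood higher in the rotated arrays and those of 15 lower, from -0.41 for Plk1, a kinase of mitotic entry, to 0.53 for Cenpe, a kinetochore motor (log2). Limma called 0 of the 36 genes at an adjusted p under 0.05 (smallest 0.658), and 0% of the 27022 probe sets tested. At an unadjusted p under 0.05 there were 0 of 36 genes and 0 of 70 probe sets, where 8.24% of the 12554 genes and 8.25% of the probe sets tested had one. The rotated and static values overlapped in every one of the 36 genes, while 15.4% of all genes had values that did not overlap. The median difference was 0.08 over the 36 genes and 0.03 over all genes tested.

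The 95% interval of the difference included 0 for all 36 genes and lay wholly within a 2-fold change in either direction (-1 to 1 on the log2 scale) for 27. The other 9 intervals reached as far as -1.12, for Ube2c, and 1.31, for Cenpe, so they left room for a change beyond 2-fold. These counts hold for the brightest probe set of each gene. Of all 70 tested probe sets, 38 had an interval wholly within 2-fold, and the bounds reached -1.96 and 2.69. The median of the members moved with the choice of arrays. It was -0.07 without static 1, -0.11 without rotated 2, 0.01 without static 3, 0.28 without static 2 and 0.28 without rotated 3. Without rotated 1 it was 0.09, close to its value with all 6 arrays. Median centring raised it to 0.25, with 28 of 36 genes higher in value, and the median of all genes to 0.13; as deposited it was 0.12, with 24 of 36 higher, and the median of all genes was -0.01. The count of genes higher in value was 14 of 36 without rotated 2, 15 without static 1, 29 without static 2, 29 without rotated 3 and 32 with array weights. It was 18 without static 3 and 21 without rotated 1, the latter as with all 6 arrays. Genes were grouped into 8 roles, and the median of 6 of these changed sign when 1 array was left out; the exceptions were the kinetochore and the cytokinesis genes, whose medians changed sign without static 1 and rotated 1 together.

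**Figure D1:**
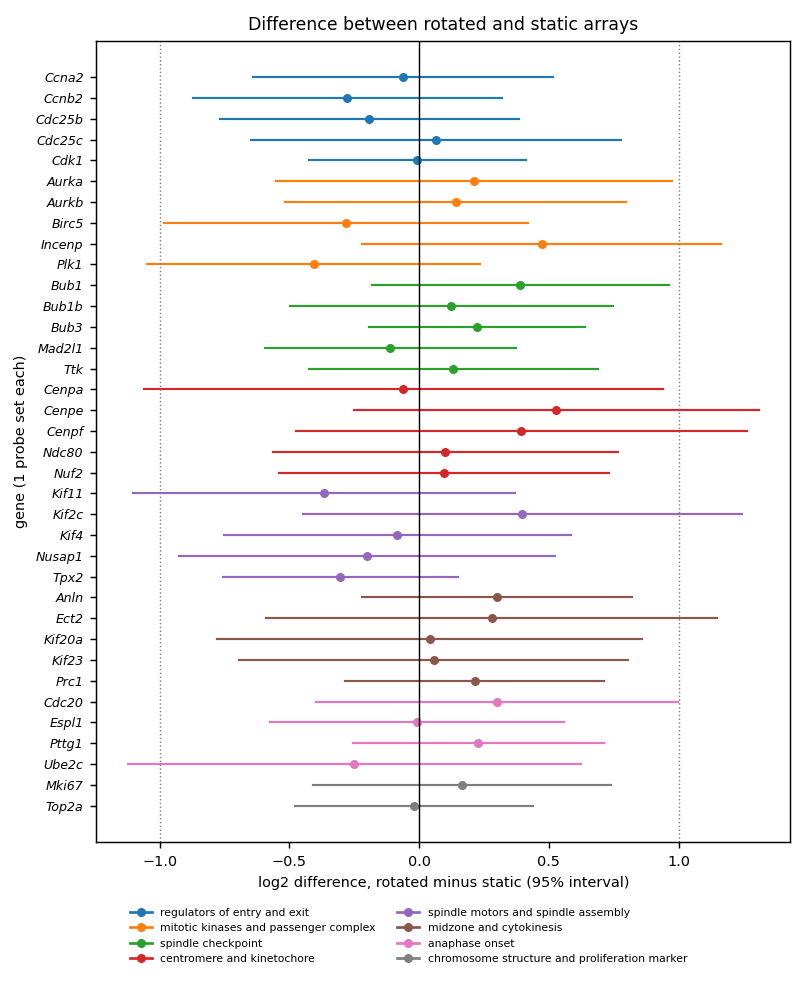
Log2 difference between rotated and static arrays for the 36 mitosis genes, 1 probe set each, with limma's 95% interval (3 arrays per group); dotted lines mark a 2-fold change and colours mark roles. Every interval crosses 0, and the points lie between -0.41 and 0.53.

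Among regulators of entry and exit, 4 of the 5 genes measured stood lower in value and 1 higher, with a median of -0.06, and none passed the test. Cdk1, the kinase that drives mitosis, was at 13.17, 13.50 and 13.24 in static 1, 2 and 3 and 13.11, 13.61 and 13.17 in rotated 1, 2 and 3. Static 2 and rotated 2 were the highest of their groups, the groups overlapped, and the difference was -0.01 ± 0.19 (95% interval -0.42 to 0.41). Ccnb2, a B-type cyclin, was at 11.55, 12.15 and 11.73 in static 1, 2 and 3 and 11.41, 12.04 and 11.15 in rotated 1, 2 and 3. Each rotated value lay below the static value of the same number, while the groups overlapped (-0.28 ± 0.27). The A-type cyclin Ccna2 differed by -0.06 ± 0.26, the phosphatase Cdc25b by -0.19 ± 0.26 and Cdc25c by 0.07 ± 0.32. The median of this group was 0.01 as deposited and 0.14 with median centring, so its direction turned with the scaling, as it did without static 2 (0.09) and without rotated 3 (0.06).

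The mitotic kinases and the chromosomal passenger complex held the gene with the smallest p among the members. Incenp, the scaffold of the passenger complex, was at 12.57, 13.14 and 12.31 in static 1, 2 and 3 and 13.57, 13.38 and 12.48 in rotated 1, 2 and 3. Rotated 1 and rotated 2 were the highest of the 6 and rotated 3 lay inside the static range (0.47 ± 0.31, 95% interval -0.22 to 1.17, adjusted p 0.658). With 1 array left out the Incenp difference ran from 0.26 without rotated 1 to 0.80 without rotated 3. Plk1, which acts at centrosomes and kinetochores, was at 9.78, 10.77 and 10.07 in static 1, 2 and 3 and 9.64, 9.73 and 10.03 in rotated 1, 2 and 3. Its static 2 value stood above all others, and the rotated arrays lay close together (-0.41 ± 0.29, 95% interval -1.05 to 0.24, adjusted p 0.677). The Plk1 difference ran from -0.62 without static 1 to -0.12 without static 2 as single arrays were left out. Birc5, the passenger protein survivin, differed by -0.28 ± 0.31 and was lower in the rotated array of every number. The Aurora kinases Aurka, of the spindle poles, and Aurkb, the kinase of the passenger complex, differed by 0.21 ± 0.34 and 0.14 ± 0.29. This group had 3 genes higher and 2 lower in value, with a median of 0.14, which was -0.07 without static 1 and -0.06 without rotated 2.

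Of the spindle checkpoint genes, 4 of 5 stood higher in value and none passed. Bub1, a checkpoint kinase that marks centromeric chromatin, was at 10.80, 11.13 and 10.60 in static 1, 2 and 3 and 11.53, 11.41 and 10.77 in rotated 1, 2 and 3. Rotated 1 and rotated 2 exceeded all static values and rotated 3 did not (0.39 ± 0.25, 95% interval -0.18 to 0.96, adjusted p 0.66). For Bub1 the leave-one-out range was 0.24 without rotated 1 to 0.62 without rotated 3. Bub3, its binding partner, was at 12.54, 12.54 and 12.36 in static 1, 2 and 3 and 12.90, 12.81 and 12.40 in rotated 1, 2 and 3. Rotated 3 lay within the narrow static range (0.22 ± 0.19, 95% interval -0.19 to 0.64, adjusted p 0.718). The Bub3 difference, with 1 array left out, ran from 0.12 without rotated 1 to 0.37 without rotated 3. Its 4 tested probe sets had both signs, 2 higher and 2 lower. The dimmer ones stood at -0.23 ± 0.23, -0.69 ± 0.57 and 0.15 ± 0.39. The pseudokinase Bub1b differed by 0.12 ± 0.28, the Mps1 kinase gene Ttk by 0.13 ± 0.25 and Mad2l1, the inhibitor of Cdc20, by -0.11 ± 0.22. The median of the 5 was 0.13, and 2 of the 5 were higher without rotated 1.

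The centromere and kinetochore genes, 4 of 5 higher in value with a median of 0.10, included the highest difference of the members over all 6 arrays. Without static 1 and rotated 1 together 2 of the 5 were higher and the median was -0.09. Cenpe, a kinesin that carries chromosomes to the spindle equator, was at 10.08, 10.84 and 9.99 in static 1, 2 and 3 and 10.96, 11.39 and 10.16 in rotated 1, 2 and 3. Rotated 1 and rotated 2 were the highest arrays, and rotated 3 overlapped the static values (0.53 ± 0.35, 95% interval -0.25 to 1.31, adjusted p 0.661). Its difference ran from 0.25 without rotated 2 to 0.87 without rotated 3, and without rotated 2 it was below those of Incenp, Bub1 and Pttg1. Cenpf, a large protein of the outer kinetochore, was at 9.71, 10.81 and 10.03 in static 1, 2 and 3 and 10.65, 11.23 and 9.85 in rotated 1, 2 and 3. Its rotated 2 value was the highest and its static 1 value the lowest of the 6 (0.39 ± 0.39). Cenpa, the histone H3 variant of centromeres, varied over more than its difference, from 10.93 in static 1 to 12.51 in static 2 (-0.06 ± 0.45). The microtubule-binding subunits Ndc80 and Nuf2 differed by 0.10 ± 0.30 and 0.10 ± 0.28.

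Spindle motor and assembly genes stood lower in value for 4 of 5, with a median of -0.20. Kif11, the motor that pushes spindle poles apart, was at 11.22, 11.64 and 11.17 in static 1, 2 and 3 and 10.26, 11.63 and 11.04 in rotated 1, 2 and 3. Rotated 1, where the actin control ran high at 3.21, was the lowest and the others overlapped (-0.37 ± 0.33, 95% interval -1.10 to 0.37, adjusted p 0.732). Among the members, rotated 1 was the lowest array for 7 genes and the highest for 6, Incenp, Bub1, Bub3 and Pttg1 among these. The part of the actin ratio in either was not tested. The dimmer probe sets of Kif11, given below, were lower in rotated in all 3 pairs of one number. Leaving out single arrays moved the difference of its representative probe set from -0.70 without rotated 2 to -0.01 without rotated 1. Tpx2, which activates Aurora A on the spindle, was at 11.83, 11.78 and 11.42 in static 1, 2 and 3 and 11.31, 11.58 and 11.22 in rotated 1, 2 and 3. All rotated values lay below their static counterparts of the same number, while rotated 2 exceeded static 3 (-0.30 ± 0.20, 95% interval -0.76 to 0.15, adjusted p 0.663). The Tpx2 difference went from -0.43 without static 3 to -0.23 without static 1 in the same way. Kif2c, a motor that removes tubulin from microtubule ends, was at 10.24, 11.78 and 10.88 in static 1, 2 and 3 and 11.53, 11.68 and 10.88 in rotated 1, 2 and 3. Static 1 was the lowest, and static 2 exceeded every rotated value (0.40 ± 0.38, 95% interval -0.45 to 1.24, adjusted p 0.749). The Kif2c value moved from 0.03 without static 1 to 0.81 without static 2 in the same way. The chromokinesin Kif4 differed by -0.08 ± 0.30 and the microtubule bundler Nusap1 by -0.20 ± 0.32. Without static 2 the median of this group was 0.08 and without rotated 3 it was 0.04, and it was 0.12 when arrays were weighted by their spread.

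Genes of the spindle midzone and cytokinesis stood higher in value for 5 of 5, with a median of 0.21 and none past the test. Anln, the scaffold anillin of the contractile ring, was at 12.81, 13.54 and 12.96 in static 1, 2 and 3 and 13.32, 13.74 and 13.15 in rotated 1, 2 and 3. Each rotated value was above its static counterpart, though static 2 exceeded rotated 1 and rotated 3 (0.30 ± 0.23, 95% interval -0.22 to 0.82, adjusted p 0.701). With single arrays left out the Anln difference ran from 0.14 without rotated 2 to 0.52 without static 2. Prc1, which cross-links midzone microtubules, differed by 0.21 ± 0.22, and Ect2, the exchange factor that activates RhoA at the division site, by 0.28 ± 0.39. The midzone kinesins Kif20a and Kif23 differed by 0.04 ± 0.36 and 0.06 ± 0.33, well within their errors. Without static 1 and rotated 1 together, 2 of the 5 were higher and the median was -0.06. With the mean over probe sets 4 of the 5 were higher and the median was 0.04. Further tested probe sets of Prc1 (-0.13 ± 0.27) and Kif23 (-0.17 ± 0.40) stood lower, and that of Anln higher (0.59 ± 0.29).

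The genes of anaphase onset were split, 2 higher and 2 lower in value, with a median of 0.11 that was -0.01 without static 1 and -0.01 without rotated 2. Pttg1, or securin, the inhibitor of separase, was at 13.18, 12.80 and 12.73 in static 1, 2 and 3 and 13.53, 13.01 and 12.86 in rotated 1, 2 and 3. Rotated 1 was the highest, and all 3 pairs of one number stood higher in rotated (0.23 ± 0.22, 95% interval -0.26 to 0.71, adjusted p 0.748). The Pttg1 difference went from 0.03 without rotated 1 to 0.37 without static 1 as single arrays were left out. Ube2c, the ubiquitin-conjugating enzyme of the anaphase-promoting complex, was at 12.57, 12.66 and 12.40 in static 1, 2 and 3 and 11.26, 13.10 and 12.52 in rotated 1, 2 and 3. Rotated 1, with its high actin ratio, was far below the other 5 arrays and rotated 2 was the highest. Without rotated 1 the difference turned from -0.25 ± 0.39 to 0.26. The part of the actin ratio in that value was not tested. Cdc20, the activator of the complex, differed by 0.30 ± 0.31, and Espl1, the protease separase, by -0.01 ± 0.25. The dimmer probe sets of Cdc20 stood at -0.22 ± 0.28, lower in all 3 pairs of one number, and at 0.28 ± 0.61. The proliferation marker Mki67, which coats mitotic chromosomes, was at 12.09, 12.63 and 12.14 in static 1, 2 and 3 and 12.45, 12.90 and 12.00 in rotated 1, 2 and 3, with overlapping groups (0.16 ± 0.26). Top2a, the topoisomerase that untangles sister DNA, was at 12.61, 12.64 and 12.19 in static 1, 2 and 3 and 12.47, 12.72 and 12.19 in rotated 1, 2 and 3, and its groups overlapped almost fully (-0.02 ± 0.20). The median of these last 2 was 0.07, and -0.11 without rotated 2 and -0.04 without static 3.

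The level of the members varied more between arrays of one group than between the groups. The mean deviation of the 36 genes from their own means over the 6 arrays was -0.27, 0.36 and -0.19 in static 1, 2 and 3 and 0.00, 0.41 and -0.31 in rotated 1, 2 and 3 (log2). Rotated minus static was thus 0.06, against a standard deviation between arrays of 0.34 in static and 0.36 in rotated (n = 3 each). The same mean over all 12554 genes stayed between -0.03 and 0.02 on the 6 arrays. Quantile normalization gives every array the same distribution of levels, so this flatness was largely set in advance. The highest array was static 2 for 14 genes and rotated 2 for 15, rotated 1 for 6 and static 1 for 1. Number 2 was the highest of both groups in 27 of 36 genes, and in 14.9% of all genes tested; the highest of all 6 arrays bore number 2 in 29 of 36 genes, and in 26.6% of all. In the rotated group number 3 was the lowest for 28 genes. What the number stands for is not given in the labels, and its part in these levels was not tested.

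**Figure D2:**
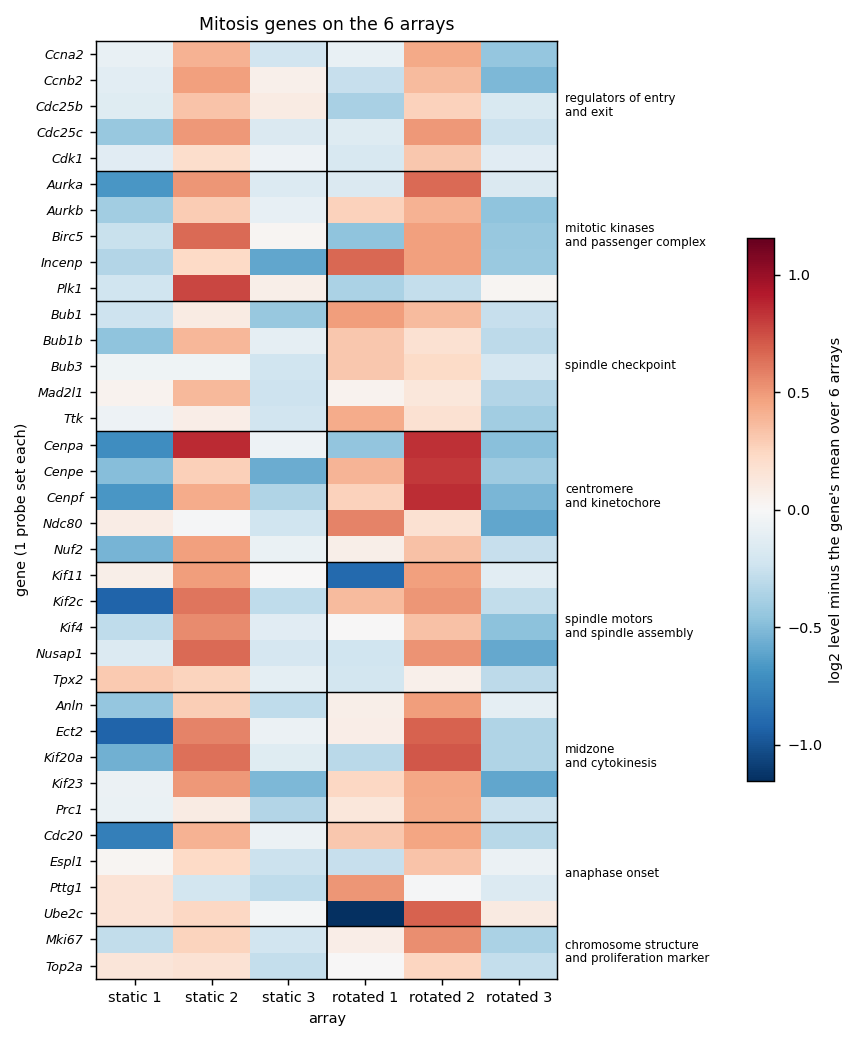
Level of each of the 36 mitosis genes on the 6 arrays, as log2 level minus the gene's own mean over the arrays; rows are grouped by role and the vertical line separates static from rotated. Red prevails in static 2 and rotated 2, the highest arrays for 29 of the 36 genes.

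**Figure D3:**
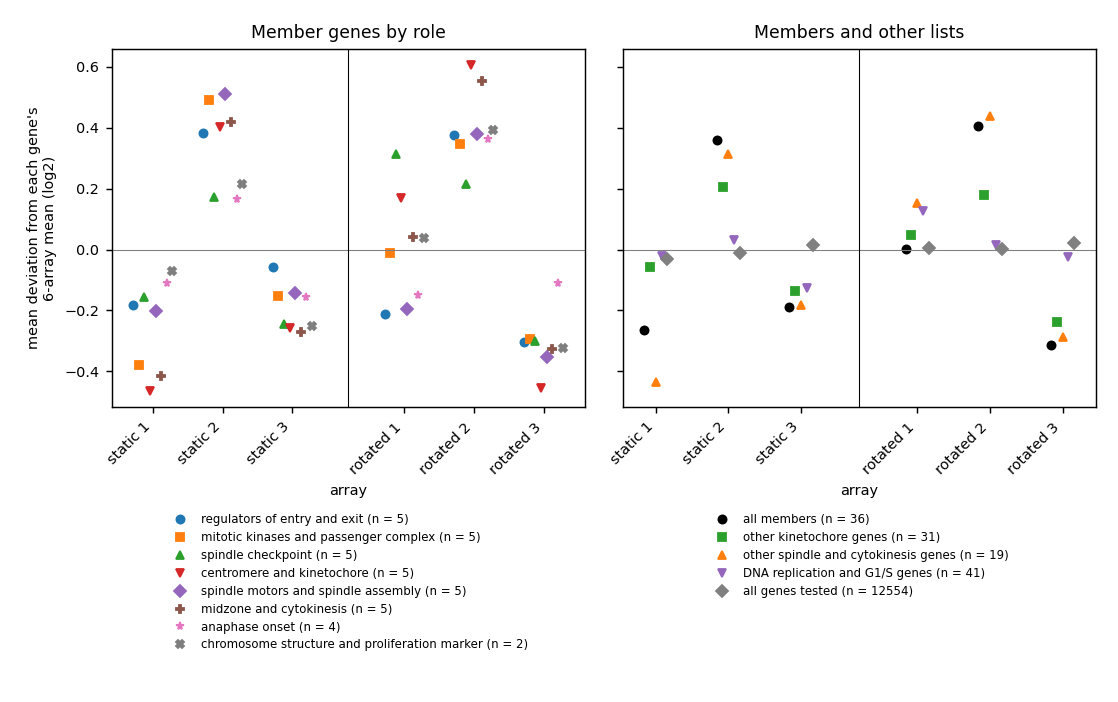
Mean deviation from each gene's 6-array mean (log2, a point per list and array) for the member genes by role, left, and for all members beside other lists, right; n is the number of genes. All members stand at 0.36 in static 2 and 0.41 in rotated 2, and at -0.31 in rotated 3.

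The replicate numbers were therefore also used as a block, since same-numbered arrays deviated together across all probe sets. With the block the median standard error of the 36 genes was 0.17, against 0.29 without it; over all genes it was 0.22 against 0.29. Limma with the block called no member (smallest adjusted p 0.294), 0% of all genes and 0.0074% of all probe sets. An unadjusted p under 0.05 was reached by 2 of 36 genes, Cenpe and Incenp, both higher in value, where 15% of all genes reached it, 8.23% higher and 6.75% lower. Among the probe sets 7 of 70 reached it, 4 higher and 3 lower, against 14.6% of all, 7.29% higher and 7.35% lower. The 4 higher were the representative probe sets of Cenpe and Incenp and dimmer ones of Anln and Top2a. The 3 lower included a dimmer probe set of Incenp at -0.67 (p 0.020 in limma with the block), against 0.47 for its representative one. The others were dimmer probe sets of Kif11, at -0.47 and -0.69 (p 0.028 and 0.0090 in limma with the block). Over the 70 probe sets the smallest adjusted p in limma with the block was 0.258. Within number 1, 24 of 36 genes stood higher in rotated, with a median of 0.30, within number 2 it was 21 with 0.08, and within number 3 it was 11 with -0.14. Rotated was higher in all 3 pairs for 7 genes and lower in all 3 for 8, against 23.8% and 19.4% of all genes. The 7 were Incenp, Bub1, Cenpe, Anln, Bub3, Pttg1 and Prc1, and the 8 were Tpx2, Plk1, Kif11, Ccnb2, Birc5, Cdc25b, Nusap1 and Mad2l1.

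Several members were read by more than 1 probe set, and these did not always run the same way. Of 21 genes with 2 or more tested probe sets, 8 had all of them higher in value, 2 had all lower, and 11 had both signs. Kif11 was lower in all 3, at -0.37 ± 0.33, -0.47 ± 0.32 and -0.69 ± 0.36; the lowest of these 3 was at 10.54, 11.30 and 10.86 in static 1, 2 and 3 and 9.40, 10.86 and 10.37 in rotated 1, 2 and 3. Incenp was higher in 3 and lower in 1, -0.67 ± 0.37, which was at 8.54, 9.24 and 9.00 in static 1, 2 and 3 and 7.49, 8.76 and 8.52 in rotated 1, 2 and 3. In that probe set rotated 1 was the lowest array, whereas in the representative one it was the highest. Kif2c was higher in its representative probe set and lower in the 3 others, the lowest at -0.35 ± 0.41. Top2a had a dimmer further probe set at 0.74 ± 0.49 and Cenpa one at 0.94 ± 0.78, whereas their representative ones differed by -0.02 ± 0.20 and -0.06 ± 0.45. A dimmer probe set also had the other sign for Aurkb (-0.23 ± 0.33 against 0.14 ± 0.29) and Nusap1 (0.72 ± 0.52 against -0.20 ± 0.32). Tpx2 was lower in 3 and higher in 1, at 0.03 ± 0.26. Only 1 of the 70 tested probe sets had groups that did not overlap, a dimmer one of Ttk at 6.26, 6.94 and 6.72 in static 1, 2 and 3 and 7.16, 7.07 and 7.14 in rotated 1, 2 and 3 (0.48 ± 0.33); over all probe sets the share was 15.1%, and 7.82% with rotated above static.

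Among the 3 rotated arrays, the probe sets of one gene lay furthest apart in rotated 1. The static arrays, and genes outside the members, were not measured in this way. Taking each rotated value minus the static mean, probe sets of one gene spread by a median of 0.65 on rotated 1, 0.38 on rotated 3 and 0.19 on rotated 2 (log2, 21 genes). The widest of the 3 spreads was in rotated 1 for 15 genes and in rotated 3 for 6. The actin and transferrin receptor ratios were also highest on rotated 1, at 3.21 and 8.92, while that of Gapdh was nearest to 1 there, at 0.875. Their part in the spread was not tested.

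**Figure D4:**
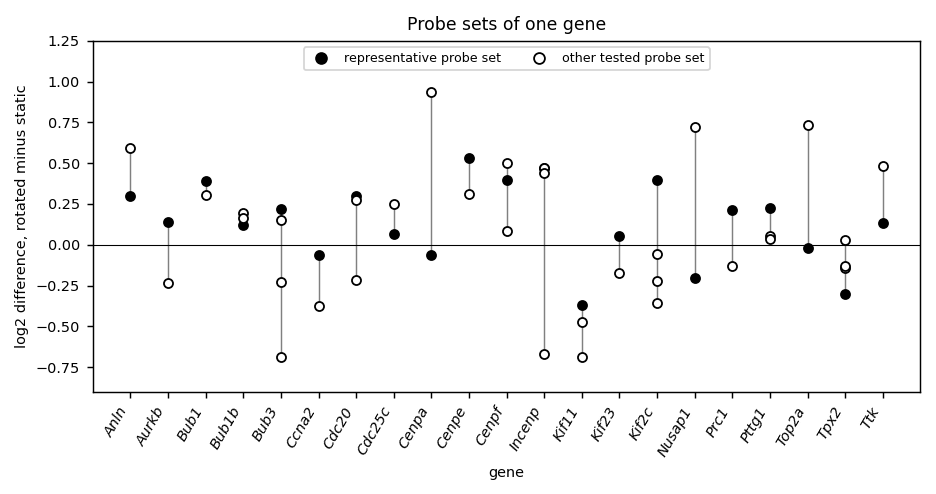
Log2 difference between rotated and static arrays for each tested probe set of the 21 mitosis genes that have 2 or more; filled points are the probe sets that represent a gene, and grey lines span its probe sets. The points of 11 genes fall on both sides of 0.

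Other genes of mitosis, outside the members, likewise held no call. Of 109 genes in 6 further lists, 106 were tested, 68 stood higher and 38 lower in value, the median was 0.05, and 0 were called. Unadjusted, limma gave a p under 0.05 to 1 higher gene, where 4.49% of all genes were so, and to 2 lower, against 3.74%. The first was Cks2, a small partner of Cdk1 (0.70 ± 0.25), and the lower ones were the kinetochore genes Cenpp (-0.50 ± 0.21) and Ska2 (-0.59 ± 0.26). Cks2 was at 12.38, 13.26 and 12.75 in static 1, 2 and 3 and 13.66, 13.70 and 13.13 in rotated 1, 2 and 3, with overlapping groups. Other spindle and cytokinesis genes were higher in value for 17 of 19, with a median of 0.20, with the highest value for Hmmr, a hyaluronan receptor that also binds spindle microtubules (0.82 ± 0.42). Condensin and cohesin genes were higher in value for 14 of 18 (median 0.15), other kinetochore genes for 16 of 31 (0.02) and subunits and regulators of the anaphase-promoting complex for 9 of 15 (0.04). A mixed list was higher in value for 7 of 13 (0.04). It held inhibitors and partners of Cdk1, such as Wee1 and Cks2, and other mitotic kinases and regulators, such as Nek2, Plk4 and Bora. Among mitotic transcription factors 5 of 10 were higher, and Foxm1 and Mybl2, activators of G2 and M phase genes, differed by -0.39 ± 0.44 and -0.27 ± 0.27. Array by array, the other spindle and cytokinesis genes stood at 0.31 in static 2 and 0.44 in rotated 2, close to the members, and at -0.43 in static 1.

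The genes of DNA replication and the G1/S step, which act before mitosis, had 24 of 41 higher and 17 lower in value, with a median of 0.11 and 0 called. At an unadjusted p under 0.05 they held 2 higher, the flap endonuclease gene Fen1 (0.80 ± 0.30) and Rpa1 (0.39 ± 0.17), which binds single-stranded DNA, and 1 lower, the helicase cofactor gene Gins2 (-0.47 ± 0.19), against 4.49% and 3.74% of all genes. With the replicate block 5 were higher and 5 lower, against 8.23% and 6.75% of all genes. Their mean deviation was 0.03 in static 2 and 0.02 in rotated 2, where the mitosis genes stood at 0.36 and 0.41; this difference in array pattern was not tested. Inhibitors of cyclin-dependent kinases, with the p53 regulator Mdm2, gave 3 of 8 higher and 5 lower in value, with 0 called. At an unadjusted p under 0.05 in limma, Cdkn2a (-1.11 ± 0.31) and Cdkn2b (-1.01 ± 0.40), both INK4 locus genes, were lower in value and Cdkn1a, the p21 gene (1.14 ± 0.50), higher, against 3.74% lower and 4.49% higher of all genes. With the block 3 were lower and 2 higher, against 6.75% and 8.23%. Cdkn2a was at 11.14, 11.41 and 10.72 in static 1, 2 and 3 and 9.39, 10.13 and 10.43 in rotated 1, 2 and 3. All 3 of its rotated values lay below all static ones, a lack of overlap seen in 15.4% of all genes in either direction. Cdkn1a was at 11.25, 9.27 and 11.32 in static 1, 2 and 3 and 11.72, 11.33 and 12.21 in rotated 1, 2 and 3, and all its rotated values lay above all static ones, rotated 2 just over static 3, while static 2 stood far below the rest.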

How the data were processed

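Total RNA of 6 samples, 3 static and 3 rotated by their titles, was hybridised to 1-colour Affymetrix arrays, per the labels and design text. The deposited table gives 1 intensity per probe set and array, as the authors left it; its trimmed mean is 500.0 on every array, and the software behind it is not given in the sources used here. Values were taken as log2(value + 16.6), the 20th percentile, and quantile normalized, since array medians differed by 85.9%. The 64 control probe sets and those with a mean under the 40th percentile (5.96) were left out, leaving 27022. The platform's gene table, set against RefSeq genes of GRCm38.p6, gave 1 symbol to 34945 of 45037 probe sets, several to 932 and none to 9160. For each gene the brightest probe set, by its mean over the 6 arrays, was taken. The comparison used limma 3.58.1 under R 4.3.3 (intensity trend, two-sided, Benjamini-Hochberg at 0.05 over all probe sets tested); the fit was tested on simulated data. Replicate numbers are shared by the groups, and deviations of same-numbered arrays correlated at 0.196, 0.313 and 0.334. From the data and not the labels, the numbers were therefore used as a block in an alternative fit. The main fit was not paired, and it gave every standard error, interval and p-value for which the block is not named.

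As alternatives the fit was repeated without between-array normalization, after median centring, with other offsets and filters, without the trend, with robust variances, with array weights, with the mean of a gene's probe sets, with the replicate block, and with arrays left out. Named with full statistics are the 10 members with the smallest p; the others are given by difference, count and range, some with their values on every array, and up to 3 genes per further list. Members and lists were chosen with earlier results of these data known. The number of arrays limits every precision.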

Additional observations from a re-analysis of the deposited data

How the results depend on the processing

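None of the 36 mitosis genes was called under any of the 18 alternatives, with a smallest adjusted p between 0.186, with array weights, and 0.996, without rotated 1. Over all probe sets 0 were called, against 22 with array weights and 2 with the replicate block, and the cause was not tested. The weights were 3.32 for static 3 and 2.55 for rotated 2, and 0.35 to 1.01 for the other arrays. On static 3 and rotated 2 the members' mean deviation was -0.19 and 0.41, so the weighted fit leaned on these arrays. The members' median ran from -0.11 to 0.28. Of the 36 genes, 25 changed sign under at least 1 alternative and 11 kept it, 7 higher and 4 lower. Among the 10 genes with the smallest p, Kif11 stood at 0.082 with array weights, Bub3 at -0.14 with the mean over probe sets, and Kif2c at -0.059 with that mean and -0.050 without static 1 and rotated 1 together. An unadjusted p under 0.05 was reached by 5 of the 36 with array weights, all higher, and by 4 without static 2, all higher. It was reached by 3 without rotated 3, all higher, and by 1 without rotated 2, lower. Of all 27022 probe sets tested, 5148, 2062, 3362 and 1930 reached it in these fits, in that order. Those counts are of probe sets in both directions, so they are no like measure for genes in 1 direction. Dim probe sets have their differences understated by the offset.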
